A study of Rattus norvegicus with 30 samples.

Results

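Lung gene expression in rats that had inhaled copper oxide nanoparticles at the high dose was compared with that in rats that had breathed air, 22 days after the last exposure (day 28). The arrays were chosen by their titles, which give the day and the dose, and came to 10 of the 30 arrays of the study, 5 at 13.2 mg/m3 and 5 at 0 mg/m3. The animals were adult male Wistar Unilever rats of the outbred strain HsdCpb:WU, supplied at 8 weeks of age and acclimatized for 2 weeks. Exposure was through the nose alone on 5 consecutive days, at a daily dose equivalent to 6 hours, and the control rats received air. Groups of 5 rats at 3.3 mg/m3 on day 28, and at 0, 3.3 and 13.2 mg/m3 on day 6, which is 1 day after the last exposure, served for comparison. The design addresses which changes in the lung persist after the exposure has ended.

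Total RNA of each rat's lung was labelled with Cy5 and hybridised with a Cy3-labelled reference RNA, 1 array per rat. A level below is the log2 ratio of lung over reference for 1 gene, and a difference is that between 2 group means of such levels. A gene is called past the threshold at a Benjamini-Hochberg adjusted p of 0.05 in limma over all 18887 genes tested. On the 10 arrays the median Cy5 signal lay between 216 and 421.5, and 61.5% to 69.5% of probes were well above background. The lung label was checked on Sftpc, the surfactant protein of alveolar type II cells, at 9.64 to 10.81 in air rats and 9.60 to 10.41 in exposed rats. Scgb1a1, the secretoglobin of club cells, was at 5.68 to 6.19 and 5.67 to 6.00.

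Only 34 of 18887 genes (0.18%) passed the threshold at the high dose on day 28. Of these, 14 were higher (0.0741% of genes) and 20 lower (0.106%) than in air rats. On day 6, in other rats, 6743 genes (35.7%) had passed at the same dose, 3896 of them higher (20.6%) and 2847 lower (15.1%). Without adjustment, 1088 genes were higher (5.76%) and 1715 lower (9.08%) on day 28 at a p under 0.05. Of the 34 genes, 28 had a symbol and 6 did not. Among them were the clock genes Dbp and Per2, which rose, and Bmal1 and Npas2, which fell. Elastin and Aifm2 also fell, and Duoxa1 and Srd5a1 rose. Only 6 of the 34 differed by at least 2-fold, and for 30 the 5 exposed and 5 air rats did not overlap, against 126 higher (0.667%) and 151 lower genes (0.799%) without overlap in all. The tissue was whole lung, so fewer cells of a type and less RNA per cell cannot be told apart.

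The arrays lay on 4 slides, and 3 slides held rats of both groups. All 34 genes differed in 1 direction within each of these 3 slides. For the 12 higher and 18 lower genes without overlap between the groups, this was fixed in advance. High-dose rats 82 and 83, on the slide without air rats of day 28, did not enter these differences. With the slide as a block 40 genes passed, 26 of them among the 34. The number of calls depended on single rats. It was 11 without air rat 6 or air rat 9, 15 without high-dose rat 82, 21 without high-dose rat 81, 59 without high-dose rat 80, 110 without high-dose rat 84 and 318 without air rat 8. In each of these cases the 34 genes kept their direction, which the lack of overlap fixed in advance for most of them. Leaving out each rat in turn, 10 of the 34 stayed past the threshold every time: Dbp, Per2, Bmal1, Npas2, Eln, Aifm2, Duoxa1, Srd5a1, Myc and a transcript without a symbol. When each array was centred on its median in place of the loess fit, 8 genes passed, 2 higher and 6 lower, so that 25% of calls were higher against 41.2%.

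**Figure D1:**
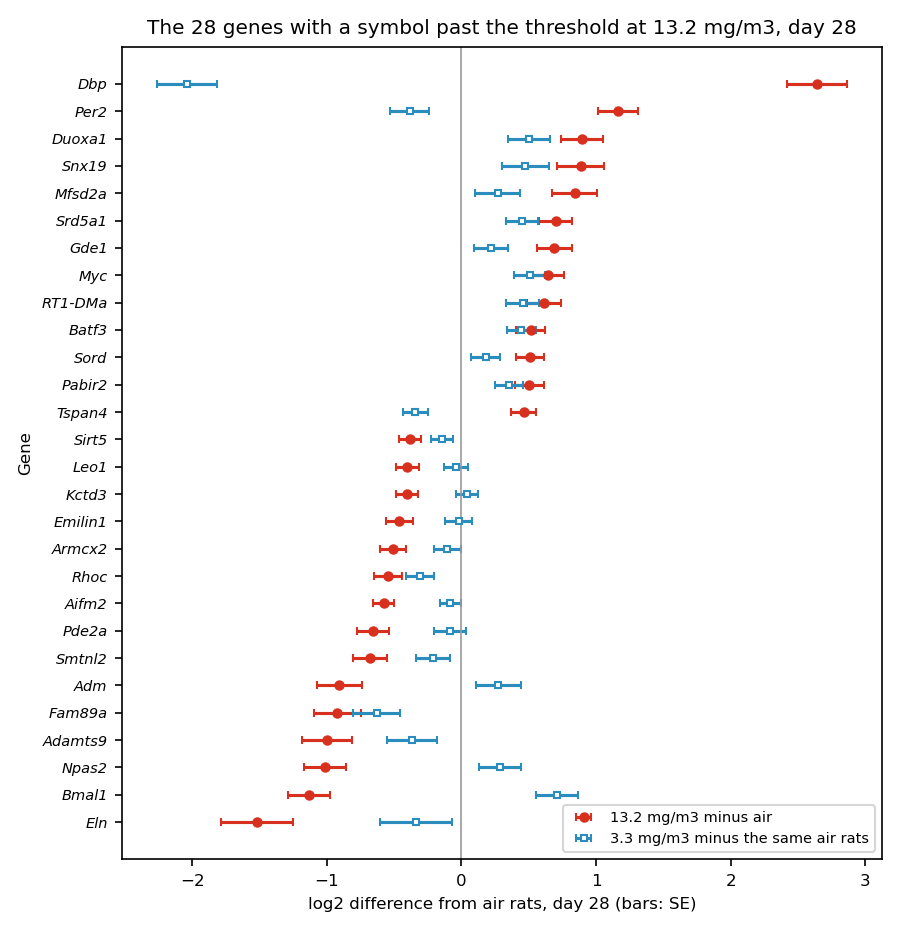
Log2 difference from the 5 air rats on day 28 for each of the 28 genes with a symbol that passed the threshold at 13.2 mg/m3 (filled circles, bars are SE), with the 3.3 mg/m3 rats against the same air rats (open squares). Dbp is farthest to the right at 2.64 and Eln farthest to the left at -1.52 at the high dose, while Dbp at the low dose lies on the other side of 0 at -2.04.

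In the circadian clock, BMAL1 pairs with CLOCK or NPAS2 and switches on the Per, Cry, Nr1d1 and Dbp genes through E-boxes in their promoters. PER and CRY proteins repress that pair, NR1D1 and NR1D2 repress Bmal1 and Npas2 through ROR elements, and DBP, TEF and NFIL3 act on D-boxes. The transcripts therefore rise and fall over the day in lung as in other tissues, with Bmal1 and Npas2 out of phase with Dbp and Nr1d1. The promoters of Per2, which rose here, and of Bmal1, which fell, are shown as an example from each side. They are the 250 bases before the start of Per2 (chr9:99496994-99497243, minus strand) and of Bmal1 (chr1:176766078-176766327, plus strand), from RefSeq, assembly GRCr8, written in the gene's direction.
Per2: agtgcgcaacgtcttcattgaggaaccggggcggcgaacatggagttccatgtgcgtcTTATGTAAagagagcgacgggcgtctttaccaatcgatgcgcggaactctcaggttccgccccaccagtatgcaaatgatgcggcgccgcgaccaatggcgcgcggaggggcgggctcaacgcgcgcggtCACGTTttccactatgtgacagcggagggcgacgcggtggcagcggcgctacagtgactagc
Bmal1: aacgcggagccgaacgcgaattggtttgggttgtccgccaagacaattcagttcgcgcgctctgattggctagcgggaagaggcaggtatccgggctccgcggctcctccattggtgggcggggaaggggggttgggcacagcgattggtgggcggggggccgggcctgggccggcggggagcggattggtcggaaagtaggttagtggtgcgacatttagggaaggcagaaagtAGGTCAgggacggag
In the Per2 window the capitals mark a D-box (TTATGTAA) that begins 192 bases before the start and an E-prime-box (CACGTT) that begins 62 bases before it. The capitals in the Bmal1 window mark the core of a ROR element (AGGTCA), 15 bases before the start. Searched on both strands, CACGTT occurs in 4.07% of all 33469 promoter windows of this length, TTATGTAA in 0.828%, AGGTCA in 14.1%, and the E-box CACGTG, which differs from CACGTT in its last base, in 5.59%. Among the 14 clock genes with a window, 3 held CACGTT, 1 TTATGTAA, 2 AGGTCA and 4 CACGTG. These are counts of genes, whereas the percentages are of windows, and Nr1d1 and Clock have more than 1 window each. The windows of Dbp and Npas2 held none of these letters, which says nothing about sites elsewhere.

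Dbp, a transcription factor at the output of the clock, was at -0.58, -0.69, -0.66, -0.28 and 0.52 in air rats 6 to 10. In high-dose rats 80 to 84 it stood at 2.29, 2.15, 2.01, 2.58 and 2.50. Every exposed rat was above every air rat, and the difference was 2.64 (SE 0.23, 6.25-fold, adjusted p = 5.81e-08), the largest increase of all named genes. All 3 probes of Dbp passed, and the other 2 gave 2.098 and 2.18. Within the 3 slides the difference ranged from 2.38 to 2.93.

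Per2, a repressor of the BMAL1 pair, was at -0.45, -0.82, -0.47, -0.28 and -0.04 in air rats. It was at 0.57, 0.47, 0.48, 0.95 and 1.28 in high-dose rats, again without overlap. The difference was 1.16 (SE 0.15, 2.24-fold, adjusted p = 0.000112). Per3, its relative, differed by 0.49 and Nr1d1 by 0.80, both without overlap between the groups, and both missed the threshold (adjusted p = 0.0596 and 0.0604). A second probe of Per3 passed on its own when all probes were tested (adjusted p = 0.0273). The dimmest of the 3 Per3 probes gave 0.30 and did not pass (adjusted p = 0.194). Nr1d1 passed without air rat 8, air rat 10 or high-dose rat 84 (adjusted p = 0.0426, 0.0342 and 0.0423), and Per3 without air rat 8 or high-dose rat 80 (0.0179 and 0.0468).

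Bmal1 and Npas2, of the activating side, fell. Bmal1 was at 0.02, -0.17, 0.35, -0.33 and -0.62 in air rats and at -1.58, -0.92, -1.01, -1.26 and -1.65 in high-dose rats. The groups did not overlap, and the difference was -1.13 (SE 0.16, adjusted p = 0.000319). Npas2, which can replace CLOCK as the partner of BMAL1, was at 1.43, 1.38, 1.52, 1.30 and 0.70 in air rats and at 0.12, 0.33, 0.40, 0.16 and 0.26 in high-dose rats. Its difference was -1.01 (SE 0.16, adjusted p = 0.0019), with air rat 10 lowest in its group but still above all exposed rats. The dimmer second probes of the 2 genes gave -0.59 and -0.18 and missed the threshold (adjusted p = 0.0937 and 0.284), and with probes averaged Npas2 differed by -0.60 and still passed (adjusted p = 0.00416). With only the 10 compared arrays in the fit Bmal1 missed the threshold (adjusted p = 0.102). Clock itself differed by -0.38 (adjusted p = 0.243).

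Of the 15 measured clock genes, 2 rose and 2 fell past the threshold at the high dose, against 0.0741% and 0.106% of all genes. The median difference of the 15 was 0.16 against -0.01 for all genes. Nr1d2 (0.31), Tef (0.46), Nfil3 (-0.29), Bhlhe40 (0.31), Cry1 (-0.05), Cry2 (0.00) and Per1 (0.05) did not pass. Ciart, a repressor of the BMAL1 pair, was not well above background on any air array and did not pass either. The clock genes did not follow the order of dose. Against the same air rats, the low dose gave -2.04 for Dbp (adjusted p = 8.94e-06) and -1.91 for Nr1d1 (adjusted p = 1.1e-06). These were the only 2 genes (0.0106%) past the threshold at the low dose on day 28. In low-dose rats 52 to 56 Dbp was at -2.34, -2.24, -2.42, -2.40 and -2.48, below every air rat. High-dose and low-dose rats differed in 26 genes (0.138%), 13 higher and 13 lower (0.0688% each), and 10 of the 15 clock genes were among them. Higher at the high dose were Dbp (4.68), Nr1d1 (2.71), Per2 (1.55), Tef (1.28), Nr1d2 (1.07) and Per3 (0.86), and lower were Bmal1 (-1.84), Npas2 (-1.30), Cry1 (-0.58) and Nfil3 (-0.53).

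On day 6 the high dose differed from air in 10 of the 15 clock genes (background 35.7%), 2 higher and 8 lower. Dbp was then lower than in air (-1.10, adjusted p = 0.000303), Per2 at -0.57 (adjusted p = 0.00268) and Bmal1 at 0.67 (adjusted p = 0.00114), each opposite in sign to day 28. The change of the high dose effect between the days was 3.75 for Dbp (adjusted p = 1.71e-09), 1.74 for Per2 (5.02e-07) and -1.80 for Bmal1 (7.6e-07). Air rats of the 2 days also differed from each other in 10 of the 15 clock genes (505 of all genes, 2.67%). Dbp was 3.01 lower on the log2 scale in air rats of day 28 than of day 6 (difference -3.01, adjusted p = 5.28e-10), and Bmal1 differed by 1.85 (adjusted p = 7.14e-09). The labels give no hour at which lungs were taken, so the hour of collection and the exposure cannot be told apart for these genes.

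**Figure D2:**
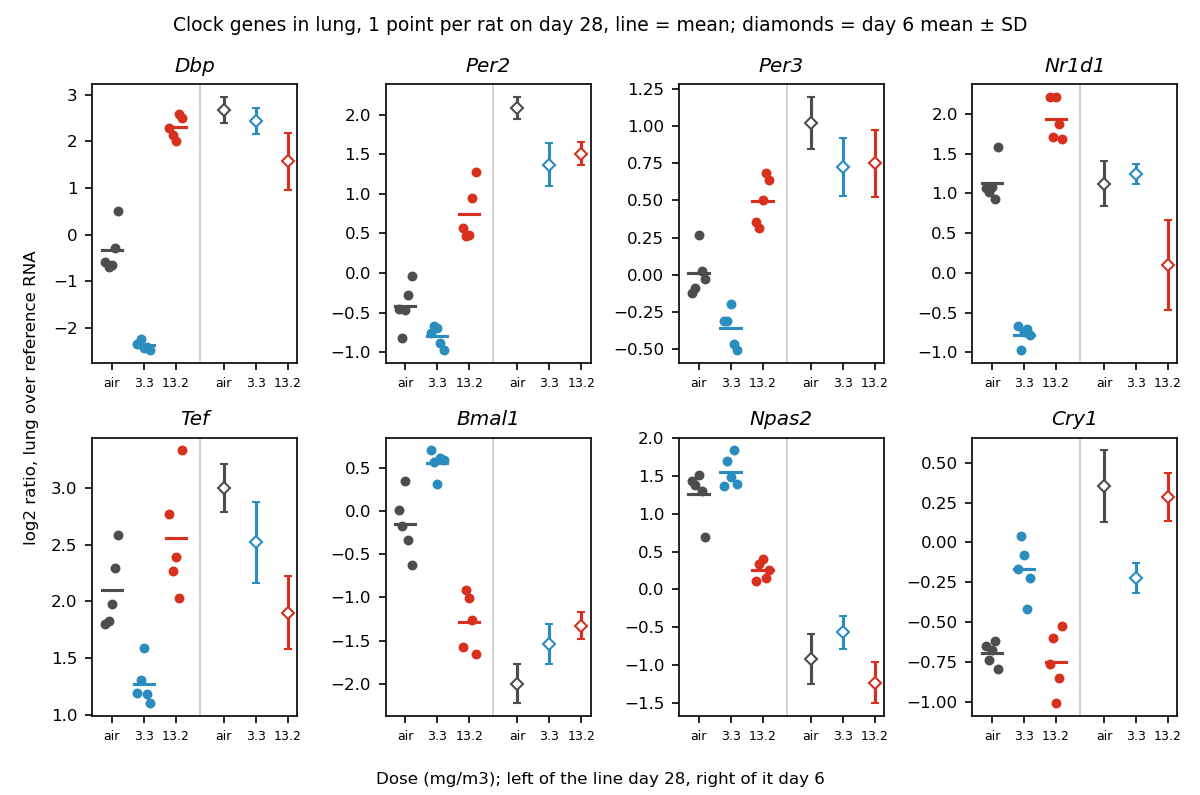
Levels of 8 clock genes (log2 ratio of lung over reference) in each of the 15 rats of day 28, with group means as lines, and the day 6 group means with SD (n = 5) as open diamonds, by dose. On day 28 Dbp, Per2, Per3, Nr1d1 and Tef are lowest at 3.3 mg/m3 and highest at 13.2 mg/m3, and Bmal1 and Npas2 are in the opposite order.

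Tspan4, a tetraspanin of the cell membrane, had the same order of groups. It was at -0.79, -0.86, -0.82, -0.88 and -0.84 in air rats, at -0.47, -0.36, -0.34, -0.38 and -0.32 at the high dose and at -1.11, -1.21, -1.12, -1.29 and -1.18 at the low dose. None of the 3 groups overlapped. The high dose differed from air by 0.46 (adjusted p = 0.0224) and from the low dose by 0.81 (adjusted p = 7.49e-06). Without air rat 6, 7 or 9, or high-dose rat 81, 82 or 83, its adjusted p was 0.0503 to 0.0807. Aifm2, an oxidoreductase that protects membranes from lipid peroxidation, was at 0.35 to 0.52 in air rats and -0.32 to -0.01 in high-dose rats. It fell by 0.58 on the log2 scale (adjusted p = 0.000319), while its dimmer second probe gave 0.10 (adjusted p = 0.849) and the average of both -0.24 (adjusted p = 0.276). Kctd3 (-0.41, adjusted p = 0.0224) was also lower than in low-dose rats (-0.45, adjusted p = 0.00765). It missed the threshold against air without air rat 6, 7 or 9 or high-dose rat 81 or 82 (adjusted p 0.0551 to 0.106), and its second probe gave -0.22 (adjusted p = 0.356).

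Elastin, the protein that lets airways, alveoli and arteries recoil, was lower in every exposed rat. Eln was at 3.07, 2.66, 2.89, 3.32 and 3.47 in air rats and at 1.53, 1.56, 1.82, 1.36 and 1.55 in high-dose rats, with no overlap. The difference was -1.52 (SE 0.27, 2.86-fold lower, adjusted p = 0.00894), and -1.65 to -1.33 within the slides. A second, dimmer probe gave -1.40 (adjusted p = 7.62e-05 over all probes). Low-dose rats, at 2.42 to 2.89, overlapped air rats (-0.34, adjusted p = 0.777), and the 2 doses differed by -1.18 (adjusted p = 0.0826). On day 6 the high dose had been 1.07 above air (adjusted p = 0.00224), and the effect changed by -2.59 between the days (adjusted p = 1.18e-05). Air rats themselves differed between the days, at a mean of 0.70 on day 6 and 3.08 on day 28 (difference 2.39, adjusted p = 1.51e-06), so the high-dose rats of day 28, at 1.56, lay between the 2 air groups.

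Emilin1, a glycoprotein at the surface of elastic fibres, also fell. It was at 0.13, -0.27, -0.19, 0.04 and -0.05 in air rats and at -0.57, -0.64, -0.44, -0.58 and -0.43 in high-dose rats. The difference was -0.46 (SE 0.10, adjusted p = 0.0463), and a dimmer probe gave -0.08 (adjusted p = 0.617). Without air rat 6, 9 or 10, or high-dose rat 80, 81, 82 or 83, its adjusted p was 0.0573 to 0.173. It passed in 3 of 11 other settings, and with both probes averaged the difference was -0.27 (adjusted p = 0.0665). Among 19 measured elastic fibre genes, a list drawn up after these values were seen, 2 fell and none rose past the threshold. Of all genes 0.106% fell and 0.0741% rose. The median of the list was -0.18. Of the 20 measured extracellular matrix genes Eln alone fell past the threshold (0.106% of all genes did). Negative differences were found in 11 of them (9813 of all 18887 genes), and the median was -0.26. Col1a1 differed by -0.75 (adjusted p = 0.215) and Col4a1, a basement membrane collagen, by -0.55 (adjusted p = 0.134). Their second, dimmer probes gave -0.25 and 0.04 (adjusted p = 0.564 and 0.935). Col4a1 passed without air rat 8 (adjusted p = 0.0291), a setting in which 318 genes passed. On day 6, 12 of the 20 matrix genes had been higher and 1 lower, against 20.6% and 15.1% of all genes.

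Adm, Pde2a and Adamts9 also fell. Adm encodes adrenomedullin, a peptide that widens blood vessels. Its levels were -0.12, 0.10, -0.73, -0.67 and -0.53 in air rats and -1.10, -1.41, -1.49, -1.35 and -1.13 in high-dose rats. These did not overlap, and the difference was -0.91 (SE 0.17, adjusted p = 0.0133). Low-dose rats were at -0.43 to 0.43, and the high dose lay below them by 1.18 (log2 difference -1.18, adjusted p = 0.000248). Without air rat 6 or high-dose rat 82 the comparison with air missed the threshold (adjusted p 0.0565 to 0.0617).

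Pde2a, a phosphodiesterase that breaks down cyclic nucleotides, was at 2.23 to 2.88 in air rats and 1.69 to 2.04 in high-dose rats. Its difference of -0.66 (SE 0.12, adjusted p = 0.0133) was close to that of day 6 (-0.79, adjusted p = 8.52e-06), and the change between the days was 0.13 (adjusted p = 0.672). It did not pass without air rat 6 or 9 or high-dose rat 82 (adjusted p 0.0565 to 0.0710). Adamts9, a secreted metalloprotease that cleaves proteoglycans, was at 1.35 to 2.04 in air rats and 0.37 to 1.02 in high-dose rats (difference -1.0, adjusted p = 0.0133). It missed the threshold without air rat 6 or 9 or high-dose rat 81 (adjusted p 0.0511 to 0.0710). Of 20 genes of adrenomedullin, endothelin and cyclic nucleotide signalling, also listed after the values were seen, these 2, Adm and Pde2a, fell past the threshold. Among all genes 0.106% did, and the median of the list was -0.27.

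**Figure D3:**
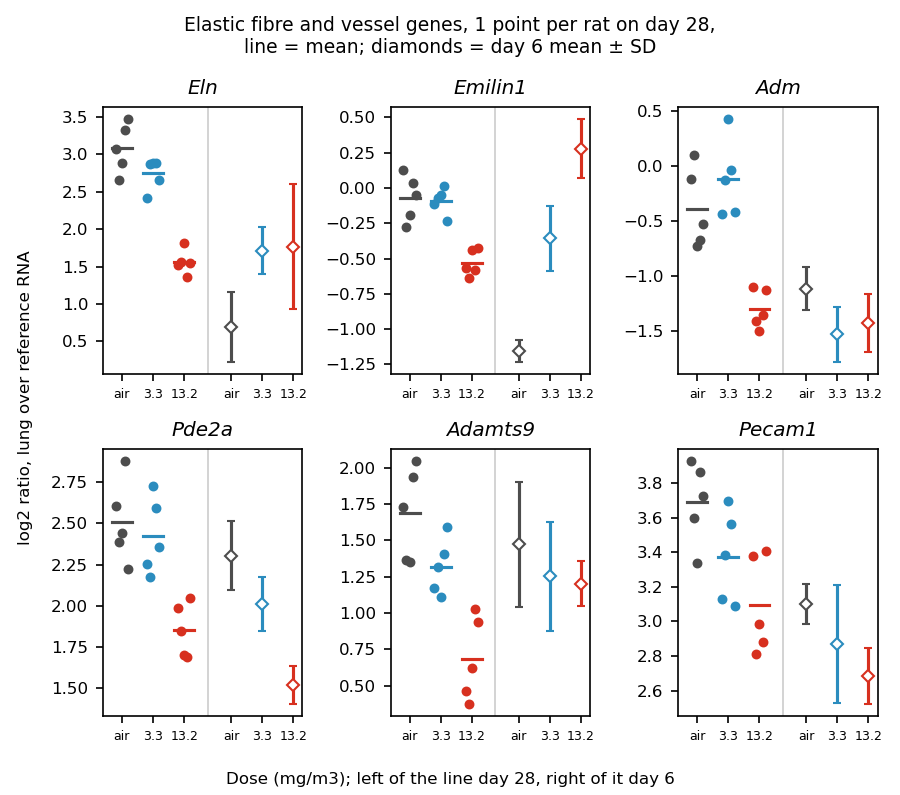
Levels (log2 ratio of lung over reference) of 2 elastic fibre genes, 3 called genes that act in vessels or matrix, and the endothelial marker Pecam1 in each rat of day 28 (lines are means) and as means with SD (n = 5) on day 6, by dose. Eln in the 13.2 mg/m3 rats of day 28 lies at or below 1.82 in every rat, and the air rats of the 2 days stand apart.

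No endothelial marker of 17 passed in limma (3 were lower at an unadjusted p under 0.05), and their median was -0.10. Pecam1, the adhesion molecule between endothelial cells, came nearest, at 3.34 to 3.93 in air rats and 2.81 to 3.41 in high-dose rats (-0.60, adjusted p = 0.08). It passed without air rat 8 or high-dose rat 84 (adjusted p = 0.0296 and 0.0429). The mean level of the endothelial list per rat was 2.92 to 3.05 in air rats and 2.43 to 3.15 in high-dose rats. For 17 smooth muscle genes, listed afterwards, the mean per rat was 0.98 to 1.23 and 0.78 to 0.98, 14 of the 17 differences were negative, and none passed (4 were lower at an unadjusted p under 0.05). Among all genes 9.08% were lower at that p, and 9813 of 18887 differences were negative. The part of these cell types in the lower Eln, Adm and Pde2a was not tested.

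Several further genes were lower. Smtnl2, related to the smooth muscle protein smoothelin, differed by -0.68 (adjusted p = 0.0136), Rhoc, a small GTPase of the cytoskeleton, by -0.55 (0.0145), Fam89a by -0.92 (0.0141) and Armcx2 by -0.51 (0.0157). A second probe of Smtnl2 gave -0.12 (adjusted p = 0.590), and the average of both -0.40 (adjusted p = 0.0726). Sirt5, a deacylase of mitochondria, was at -0.38 (0.0356) and Leo1, a subunit of a transcription elongation complex, at -0.40 (0.0485). Each of these 6 lost its call when single rats were left out: Smtnl2 and Fam89a without air rats 6 or 9 or high-dose rat 82 (adjusted p up to 0.0727 and 0.0710). Rhoc also lost it without high-dose rat 83 (0.0503 to 0.0710), and Armcx2 without air rats 6 or 9 or high-dose rat 81 (0.0550 to 0.0889). Sirt5 missed the threshold without 7 of the 10 rats (air rats 6, 7, 9 and 10 and high-dose rats 81, 82 and 83, 0.0531 to 0.154) and Leo1 without these 7 and high-dose rat 80 (0.0517 to 0.171).

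Among the genes that rose, Duoxa1 encodes the factor that brings the dual oxidase DUOX1, a source of hydrogen peroxide in airway epithelium, to the cell surface. It was at -1.30, -0.95, -0.87, -0.96 and -1.15 in air rats and at -0.13, -0.33, -0.21, -0.00 and -0.05 in high-dose rats. The groups were apart, by 0.90 (SE 0.16, 1.87-fold, adjusted p = 0.00865). On day 6 the difference had been 1.81 (adjusted p = 4.59e-10), and it had changed by -0.91 since (adjusted p = 0.00415). The low dose gave 0.50 (adjusted p = 0.77). Duox1 itself was at -0.80 to -0.11 in air rats and 0.00 to 1.15 in high-dose rats, a difference of 0.96 that missed the threshold (adjusted p = 0.0782). Of 10 measured oxidase genes, listed after these values were seen, Duoxa1 alone rose past the threshold (0.0741% of all genes did), and the median was 0.06.

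Srd5a1, a steroid 5-alpha reductase, was at -1.78, -1.52, -1.30, -1.45 and -1.41 in air rats and at -0.96, -0.66, -0.61, -0.86 and -0.87 in high-dose rats. These ranges did not meet, and the difference was 0.70 (SE 0.12, adjusted p = 0.00865), after 1.17 on day 6 (adjusted p = 1.24e-08). Its dimmer second probe gave 0.35 (adjusted p = 0.251). Myc, a transcription factor that drives growth, was at -2.42 to -2.17 in air rats and -1.82 to -1.47 in high-dose rats (difference 0.65, adjusted p = 0.0131). It was the only one of 22 immediate early genes to pass (0.18% of all genes did), and their median was 0.17. On day 6 Myc had differed by 0.17 (adjusted p = 0.284).

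Mfsd2a, Gde1, Sord, Snx19 and Pabir2 rose as well. Mfsd2a, a carrier of lysophospholipids into cells, was at 0.14 to 0.87 in air rats and 0.89 to 1.62 in high-dose rats (0.84, adjusted p = 0.0218), and it had differed by 0.85 on day 6. Gde1, a phosphodiesterase of glycerophosphodiesters, differed by 0.69 (adjusted p = 0.0136) and Sord, sorbitol dehydrogenase, by 0.51 (adjusted p = 0.0279). Snx19, a sorting nexin, differed by 0.89 (adjusted p = 0.0194), although its other 2 probes gave 0.33 and -0.08 and the average of the 3 gave 0.38 (adjusted p = 0.0578). Pabir2 differed by 0.50 (adjusted p = 0.0417), with 0.22 from a second probe (adjusted p = 0.310), and passed in 4 of 11 other settings. All 5 missed the threshold without air rat 6, air rat 9 or high-dose rat 82. Further rats did this for Mfsd2a and Snx19 (high-dose rat 83), Snx19 (high-dose rat 81), and Sord and Pabir2 (air rat 7, high-dose rats 81 and 83), with adjusted p up to 0.106, 0.101, 0.132 and 0.173. Pabir2 had been lower on day 6 (-0.70, adjusted p = 7.79e-06). Of 26 measured genes of sterol synthesis and lipid handling none passed (6 were higher at an unadjusted p under 0.05, against 5.76% of all genes). Their differences were positive in 20, against 9074 of all 18887 genes, and the median was 0.15.

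RT1-DMa and Batf3, both on the list of antigen presentation and dendritic cell genes, rose. RT1-DMa, which loads peptides onto MHC class II molecules, was at 0.52, 0.48, 0.65, 0.27 and 0.83 in air rats and at 1.07, 1.09, 1.49, 1.12 and 1.05 in high-dose rats. No exposed rat reached down to the air rats, and the difference was 0.61 (SE 0.12, adjusted p = 0.0252), against 1.67 on day 6 (adjusted p = 2.76e-11). Batf3, a transcription factor of dendritic cells, was at -0.28 to 0.36 and 0.27 to 0.77, so that the groups overlapped (0.52, adjusted p = 0.0356). Its difference on day 6 had been 0.14 (adjusted p = 0.332). Both missed the threshold without air rat 6, 7 or 9 or high-dose rat 81 or 82, and RT1-DMa also without high-dose rat 83 (adjusted p 0.0503 to 0.120 for RT1-DMa and 0.0656 to 0.145 for Batf3). The other 11 of the 13 measured members did not pass, and the list's median was 0.15. Among all genes 0.0741% rose past the threshold.

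None of 24 macrophage and monocyte markers passed in limma. At an unadjusted p under 0.05, 6 were higher and 1 lower, against 5.76% and 9.08% of all genes. Positive differences were found in 18 of the 24, against 9074 of all 18887 genes, and their median was 0.24. The mean of the list per rat was 0.19 to 0.63 in air rats, 0.30 to 0.74 at the low dose and 0.42 to 0.91 at the high dose, so the groups overlapped. Mrc1, the mannose receptor of macrophages, was at -0.44 to 0.48 in air rats and 0.43 to 1.49 in high-dose rats (0.77, adjusted p = 0.133). Trem2, a lipid receptor of macrophages, differed by 0.75 (adjusted p = 0.184). The other 6 markers of the list had negative differences, among them Marco (-0.39, adjusted p = 0.235) and Cd163 (-0.36, adjusted p = 0.469). Clec7a had been lower on day 6, at -1.10 (adjusted p = 0.00596), and its effect changed by 2.12 (adjusted p = 0.000877). The complement genes Cfi and C2 differed by 0.98 and 0.80 and missed the threshold (adjusted p = 0.0876 and 0.0728). C2 passed without high-dose rat 84 (adjusted p = 0.0431).

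Interferon response genes, raised on day 6, had mostly negative differences on day 28. Of 25 measured, 23 had passed as higher on day 6 (20.6% of all genes), with a median of 1.77. On day 28 none passed in limma (9 were lower at an unadjusted p under 0.05, against 9.08% of all genes). Negative differences were found in 22 of the 25, against 9813 of all 18887 genes. The median was -0.20, against -0.01 for all genes. The mean of the list per rat was 1.38 to 1.60 in air rats and 1.03 to 1.63 in high-dose rats, so the groups overlapped. Rsad2, an antiviral enzyme, was at 4.01, 3.75, 3.71, 3.92 and 3.43 in air rats and at 3.37, 2.34, 2.99, 3.25 and 2.64 in high-dose rats. The groups did not overlap, and the difference was -0.85 (adjusted p = 0.191), after 3.85 on day 6 (adjusted p = 1.33e-11). Cmpk2, a mitochondrial kinase induced with Rsad2, differed by -0.56 (adjusted p = 0.119) and Ifi27 by -0.52 (adjusted p = 0.133), both without overlap. No other member of the list was without overlap, and among all genes 151 (0.799%) were lower without overlap. Low-dose rats, set against the same air rats, gave -0.77, -0.39 and -0.44 for the 3 genes and a median of -0.20 for the list.

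**Figure D4:**
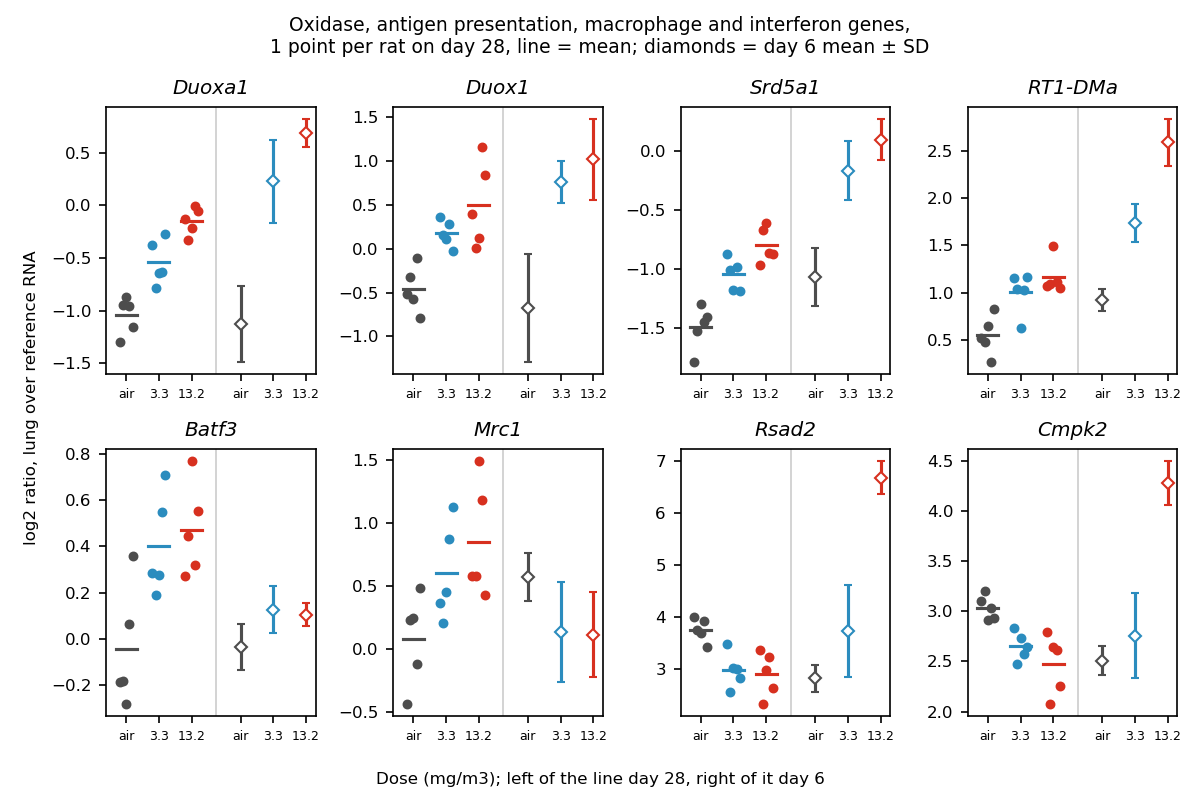
Levels (log2 ratio of lung over reference) of oxidase, antigen presentation, macrophage and interferon genes in each rat of day 28 (lines are means) and as means with SD (n = 5) on day 6, by dose. Duoxa1, Srd5a1 and RT1-DMa lie higher at 13.2 mg/m3 than in air on both days, whereas Rsad2 and Cmpk2 are above air on day 6 and below it on day 28.

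Ccl2, Ccl7, Ccl12, Cxcl10, Mmp12, Spp1 and Lcn2, all higher on day 6, did not pass on day 28. The chemokine Ccl2 went from a difference of 5.70 on day 6 to -0.22 on day 28 (adjusted p = 0.841 on day 28). For Ccl7 these values were 5.56 and -0.04, for Ccl12 6.28 and 0.12, and for Cxcl10 4.73 and -0.11. Mmp12, the elastase of macrophages, went from 4.04 to 0.25 (adjusted p = 0.465) and Spp1, osteopontin, from 3.06 to -0.05. Lcn2, the iron-binding lipocalin, was still at 0.61 but missed the threshold (adjusted p = 0.385), with air rats at 0.07 to 1.99 and high-dose rats at 1.02 to 2.13. All 7 effects changed past the threshold between the days, as did 3086 of all genes (16.3%), 1010 of them upwards (5.35%) and 2076 downwards (11%).

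Mt1, Hmox1, Slc7a11, Cdk1, Rrm2 and S100a9, all higher on day 6, did not pass on day 28 either. Mt1, which binds copper and zinc, differed by 2.25 on day 6 and by 0.47 on day 28 (adjusted p = 0.322). Hmox1, heme oxygenase, went from 2.71 to -0.12, and Slc7a11, the cystine carrier, from 3.47 to -0.00. Cdk1, the kinase of mitosis, went from 2.58 to -0.22 (adjusted p = 0.406), and Rrm2, a subunit of ribonucleotide reductase, from 3.06 to -0.24. S100a9 of neutrophils went from 3.49 to -0.85 (adjusted p = 0.286). Of genes that had been lower on day 6, Cav1, the caveolin of alveolar type I and endothelial cells, went from -1.60 to -0.16, Pla2g2d from -2.45 to 0.23 and Serpinb10 from -3.43 to 0.27. Each of these 9 effects changed past the threshold.

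**Figure D5:**
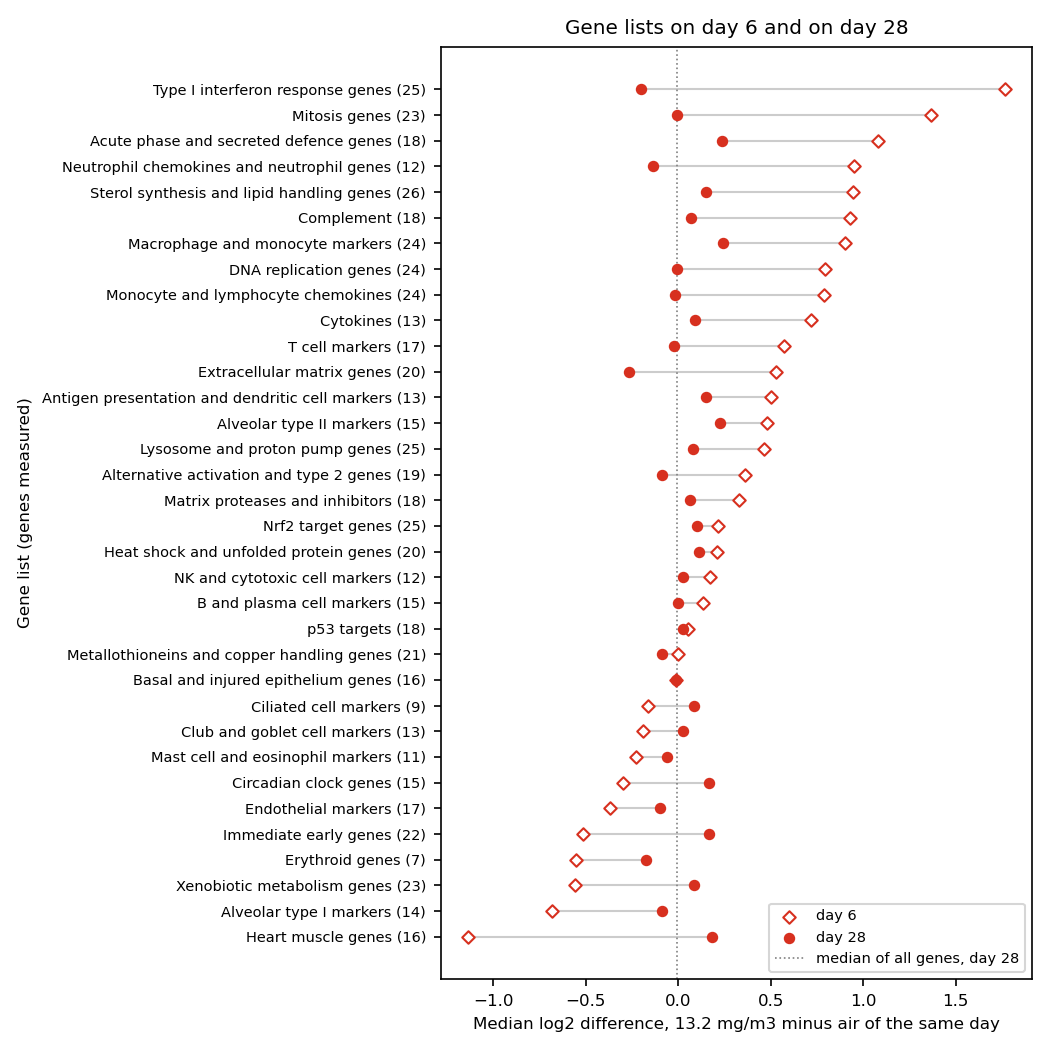
Median log2 difference of the 13.2 mg/m3 rats from air rats of the same day, for 34 gene lists, on day 6 (open diamonds) and on day 28 (filled circles). The numbers in brackets are the genes measured, and the dotted line is the median of all genes on day 28, -0.01. Interferon response genes go from 1.77 to -0.20 and macrophage markers from 0.90 to 0.24.

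Over 34 gene lists of cell types and responses, 584 genes were measured and 8 were called on day 28, against 0.18% of all genes tested. At that share most lists of such sizes hold no call, so an empty list says little about its cells or response. In 30 lists none passed, and the other 4 were the clock genes, the antigen presentation genes, the extracellular matrix genes (Eln) and the immediate early genes (Myc). No marker of T cells (17 measured), B cells (15), NK cells (12), mast cells and eosinophils (11), alveolar type I cells (14), alveolar type II cells (15), club and goblet cells (13) or ciliated cells (9) passed. At an unadjusted p under 0.05, 0 to 4 genes differed in each of these 8 lists (14.8% of all genes), and their medians lay between -0.09 and 0.23. Napsa, an aspartic protease of alveolar type II cells, came nearest among the type II markers at 0.57 (adjusted p = 0.141), with no overlap between the groups. Heart muscle genes stood apart in 1 high-dose rat: Myh6 was at 4.09 in rat 83, at -1.15 to 0.48 in the other high-dose rats and at -1.04 to -0.49 in air rats. Without that rat 26 genes passed, 22 of them among the 34, and the part of heart muscle RNA in the differences was not tested.

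Both doses of day 28 were set against the same air rats, and the 34 genes were chosen on the high-dose rats, so no grading by dose can be read from them. High-dose rats differed from low-dose rats past the threshold in 9 of the 34, namely Dbp, Per2, Bmal1, Npas2, Tspan4, Aifm2, Kctd3, Adm and Pde2a.

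The rats of the 2 days are separate animals. Of the 34 genes, 23 had also passed on day 6 at the high dose, which is 67.6% of the day 28 genes and 0.341% of the 6743 day 6 genes. Among all genes tested 35.7% passed on day 6, 20.6% as higher and 15.1% as lower. In 16 the direction was the same on both days and in 7 it was opposite. The 7 genes higher on both days were Duoxa1, Srd5a1, RT1-DMa, Mfsd2a, Gde1, Sord and Snx19. The 9 lower on both days were Pde2a, Fam89a, Armcx2, Smtnl2, Kctd3, Sirt5 and 3 without a symbol. The 4 that were higher on day 28 and lower on day 6 were Dbp, Per2, Tspan4 and Pabir2, and the 3 that were lower on day 28 and higher on day 6 were Bmal1, Eln and Emilin1. For 18 of the 34 the effect itself differed between the days past the threshold, against 16.3% of all genes. The 34 were chosen on the day 28 difference that enters this change, so the 2 shares cannot be compared.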

How the data were processed

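Lung RNA of 30 rats was measured on 2-colour arrays, 6 groups of 5. The deposited scanner files hold the spot and local background intensity of each channel, written per the file headers by the scanner software Agilent Feature Extraction, with 0 or 1 flags as other columns. The authors also deposited a table of log2 ratios, for which the labels describe no steps. It correlated with scanner ratios made without background correction at 0.999 to 1.000 on the 10 compared arrays, with column medians of -0.0187 to -0.00539, and has the same direction. It was used as an alternative. The labels name the Cy3 reference as a rat RNA in one field and a mouse RNA in another, and they list the nanoparticle as treatment for air rats too, so groups were taken from dose and day.

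Of 62976 spots, 4259 were controls. Median signals were background corrected with normexp (offset 50), loess-normalized within arrays without weight on control and outlier-flagged spots, and averaged per probe. Of 30367 probes, 18005 were given 1 of 15168 symbols by matching the accession in the scanner files to RefSeq, and 12362 stayed unnamed. A probe was kept if well above background in Cy5 on at least 5 arrays, and the brightest probe stood for a gene, which left 18887 genes, 7223 of them without symbol. Group means over all 30 arrays were fitted with limma 3.58.1 in R 4.3.3 (24 residual degrees of freedom), with Benjamini-Hochberg adjustment and a threshold of 0.05. The scripts were tested on simulated data. The number of arrays limits the precision, and the median SE of a difference was 0.11. No file columns were left unused for lack of a sample (0).

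Named genes were the 15 largest increases and 10 largest decreases with a symbol, past the threshold and without overlap, from every list up to 3 members ranked by p, the 6 largest changes shared by both days, and a fixed panel. The remaining clock genes, the other genes past the threshold and Duox1 were added after their values were seen. The members and the 34 lists were chosen with earlier results of these data known, and 4 more lists were added after the values were seen. Alternatives were the slide as a block, only the 10 arrays in the fit, no background correction, median centring, Cy5 alone, the authors' table, other filters on dim probes, averaged probes, array weights, a minimum fold change and leaving out each rat. Promoter windows came from RefSeq, assembly GRCr8, by symbol.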

Additional observations from a re-analysis of the deposited data

Results flagged for a closer look

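For 48 of 77 named genes and transcripts the difference of the high dose from air changed between day 6 and day 28 past an adjusted p of 0.05 in limma. Among all genes tested this held for 16.3%. Named genes were picked on their day 28 values or with earlier results of these data known, so a higher share among them was built in. The values that follow are the day 28 difference minus the day 6 difference on the log2 scale. Among clock genes the change was 3.75 for Dbp, 1.82 for Nr1d1, 1.74 for Per2, 1.55 for Tef, 0.96 for Nr1d2, 0.76 for Per3, 0.46 for Ciart, -0.70 for Npas2, -0.86 for Nfil3 and -1.80 for Bmal1. Chemokine and defence genes changed by -6.16 (Ccl12), -5.93 (Ccl2), -5.60 (Ccl7), -4.84 (Cxcl10), -4.02 (Lcn2), -4.35 (S100a9) and -2.09 (Cfi), and interferon response genes by -4.69 (Rsad2), -2.33 (Cmpk2) and -1.92 (Ifi27). Macrophage genes went both ways, with -3.79 for Mmp12, -3.11 for Spp1, -1.46 for Trem2, 1.23 for Mrc1 and 2.12 for Clec7a.

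Matrix genes changed by -2.59 (Eln), -2.09 (Col1a1) and -1.89 (Emilin1). Further genes changed by -3.47 (Slc7a11), -3.30 (Rrm2), -2.83 (Hmox1), -2.81 (Cdk1), -1.78 (Mt1) and 0.48 (Myc). Upward changes were found for Serpinb10 (3.70), Pla2g2d (2.68), Cav1 (1.44), Pabir2 (1.21), Tspan4 (0.98) and Sirt5 (0.37). Downward changes were found for RT1-DMa (-1.06), Duoxa1 (-0.91), Rhoc (-0.79), Leo1 (-0.55) and Aifm2 (-0.54). The remaining 3 were transcripts without a symbol, at -0.47, -0.46 and 0.31.

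In 13 of 231 groups of 5 rats, a single rat lay far from the others, and chance alone gives about 1 in 20. Air rat 10 stood apart for Npas2 (0.70, nearest 1.30), Nr1d1 (1.58, nearest 1.08) and Hmox1 (-0.47, nearest -1.43), and air rat 8 for Cry2 (0.071, nearest 0.52). Among high-dose rats it was rat 82 for RT1-DMa (1.49, nearest 1.12), rat 83 for Cav1 (2.31, nearest 2.13), rat 84 for Smtnl2 (2.15, nearest 1.73), rat 81 for Sord (-1.31, nearest -1.57), and rat 84 for a transcript without a symbol (-0.21, nearest 0.06). Among low-dose rats it was rat 54 for Myh6 (3.78, nearest -0.35), Napsa (3.95, nearest 4.41) and RT1-DMa (0.63, nearest 1.02), and rat 53 for Ccl2 (-3.05, nearest -4.43).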

How the results depend on the processing

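Against the 34 genes past the threshold at the high dose on day 28, 12 passed with only the 10 compared arrays in the fit (7 of them among the 34), 8 with median centring (all 8 among the 34), 105 with Cy5 alone (29 among the 34) and 19 when at least a 1.5-fold change was also required. Leaving out 1 rat of the 10 gave 11 to 318 genes. The other alternatives gave 26 to 42. A further alternative, chosen after seeing the data, left out air rat 4 of day 6, whose array stands apart, and gave 39 genes, 33 of them among the 34. The change of the high dose effect between the days passed for 1627 genes with median centring against 3086. The causes of these shifts were not tested. None of the 34 genes changed sign in any of these alternatives, and Dbp, Eln and Npas2 passed in every one. Of 43 named genes that did not pass, 7 passed in at least 1 alternative, among them Nr1d1, Per3 and Pecam1. No paired analysis was possible because the groups compared share no replicate numbers, and the slide block is a batch term that pairs no rats. Probes near background, such as those of Ciart and Per1, carry less certain values.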

Other observations

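High-dose and low-dose rats of day 28 differed in 9 named genes that passed in neither dose against air. Lower at the high dose were Fibin (-1.22), Rflnb (-0.92), Cdkn2b (-0.76), an inhibitor of cyclin-dependent kinases, G0s2 (-0.70), an inhibitor of fat breakdown, and Tead3 (-0.40), a transcription factor of the Hippo pathway. Higher were Ccdc116 (0.92), Dgat2 (0.61), which makes triglycerides, Kifc3 (0.47), a kinesin motor, and Bri3 (0.31). These were chosen after their values were seen, as the remaining genes with a symbol past the threshold in that comparison besides clock genes and genes described above.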
